A study of Homo sapiens with 15 samples.

Results

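SOS1, NRAS, HRAS, BRAF, MAP2K1, MAP2K2 and MAPK3 encode core components of the RAS-RAF-MEK-ERK signaling cascade. They were taken by symbol from the table of raw counts, with no threshold on their values. They are 7 of the 730 endogenous genes on the panel. Only 4 of the 7 encode protein kinases, namely BRAF, MAP2K1, MAP2K2 and MAPK3, while NRAS and HRAS encode small GTPases and SOS1 encodes a guanine nucleotide exchange factor.

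The samples were HCT116 cells, an established human colorectal cancer line, exposed for 24 h to compounds or left untreated. TQ is thymoquinone, a plant quinone, and 5-FU is 5-fluorouracil, a pyrimidine antimetabolite used against colorectal cancer. The 5 groups of 3 biological replicates were untreated control, 40 µM TQ, 15 µM 5-FU, the combination of 35 µM TQ with 35 µM 5-FU (Combi), and 35 µM SARB, a single hybrid molecule in which TQ and 5-FU are joined through an ester. All groups shared the same cell line and medium, and the control is given as untreated rather than as vehicle-treated. RNA was measured with the NanoString nCounter PanCancer Pathways panel, which counts color-barcoded probes hybridized to each transcript. The questions were how treated cells differed from untreated cells and how the treatments differed from each other.

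In this cascade an activated growth factor receptor recruits adaptors and SOS1, which loads RAS proteins with GTP. GTP-bound RAS activates RAF kinases such as BRAF, RAF phosphorylates the kinases MEK1 and MEK2 encoded by MAP2K1 and MAP2K2, and these phosphorylate ERK1, encoded by MAPK3. The pathway drives proliferation and is a frequent site of mutation in colorectal cancer. Its activity is set mainly by nucleotide exchange and phosphorylation, which a transcript count does not measure.

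Counts are given here as scaled counts, which are raw counts times 1 factor per sample, chosen to bring the 40 housekeeping genes to the same geometric mean in each of the 15 samples. A gene is called higher or lower where the p of edgeR's quasi-likelihood test, adjusted after Benjamini and Hochberg over the 730 genes, was 0.05 or less and the fold change was at least 1.5. Summed endogenous counts per sample ran from 135017 to 607782. The 7 genes had raw counts between 55 and 1580, and each was at least 4.77 times the background of its sample, taken as the mean of the 8 negative probes plus 2 SD. The samples ran on 3 cartridges. The first held control replicate 1 and every TQ, 5-FU and SARB sample, the second held control replicates 2 and 3 and Combi replicate 1, and the third held Combi replicates 2 and 3. All 7 epithelial markers on the panel were above background in every sample, with summed scaled counts of 4457 to 13885, while 1 of 6 haematopoietic markers (CD40) and 0 of 6 mesenchymal or endothelial markers were above it in every sample, with sums of 169 to 274 and of 31.8 to 97.1. CSF1R, IL2RA, COL1A2, COL3A1, PDGFRA and PDGFRB were above background in no sample. In a bulk measurement a change in the cells present and a change in RNA per cell cannot be told apart.

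HRAS and MAPK3 were the members called against control, so the 120 bases upstream of their annotated starts are shown, from RefSeq on GRCh38.p14 and read 5′ to 3′ on the gene strand. Capitals mark GGGCGG, the core of the GC box bound by SP1-type factors, or its reverse complement CCGCCC. The HRAS stretch is chr11:535577-535696 on the minus strand, and the MAPK3 stretch is chr16:30123221-30123340 on the minus strand.
HRAS: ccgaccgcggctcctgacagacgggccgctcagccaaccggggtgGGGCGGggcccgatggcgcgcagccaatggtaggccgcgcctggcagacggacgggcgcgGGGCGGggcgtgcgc
MAPK3: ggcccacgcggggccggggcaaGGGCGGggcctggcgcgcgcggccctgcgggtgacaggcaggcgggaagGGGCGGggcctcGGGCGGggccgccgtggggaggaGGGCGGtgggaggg
The HRAS stretch holds 2 copies and the MAPK3 stretch 4. The whole RefSeq windows of 300 bases, from 250 before the start to 50 after it, were searched on both strands. Overlapping copies were each counted. HRAS had 5 copies and MAPK3 had 8, NRAS and MAP2K1 had 3 each, MAP2K2 had 2, SOS1 had 1 and BRAF had 0. For SOS1, MAP2K1 and MAP2K2 the first of 2 listed starts is given, and the second had 0 copies in each case. At least 1 copy stood in 45% of all 35116 promoter windows of this length. These matches describe the letters in the windows, and no binding was measured.

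**Figure D1:**
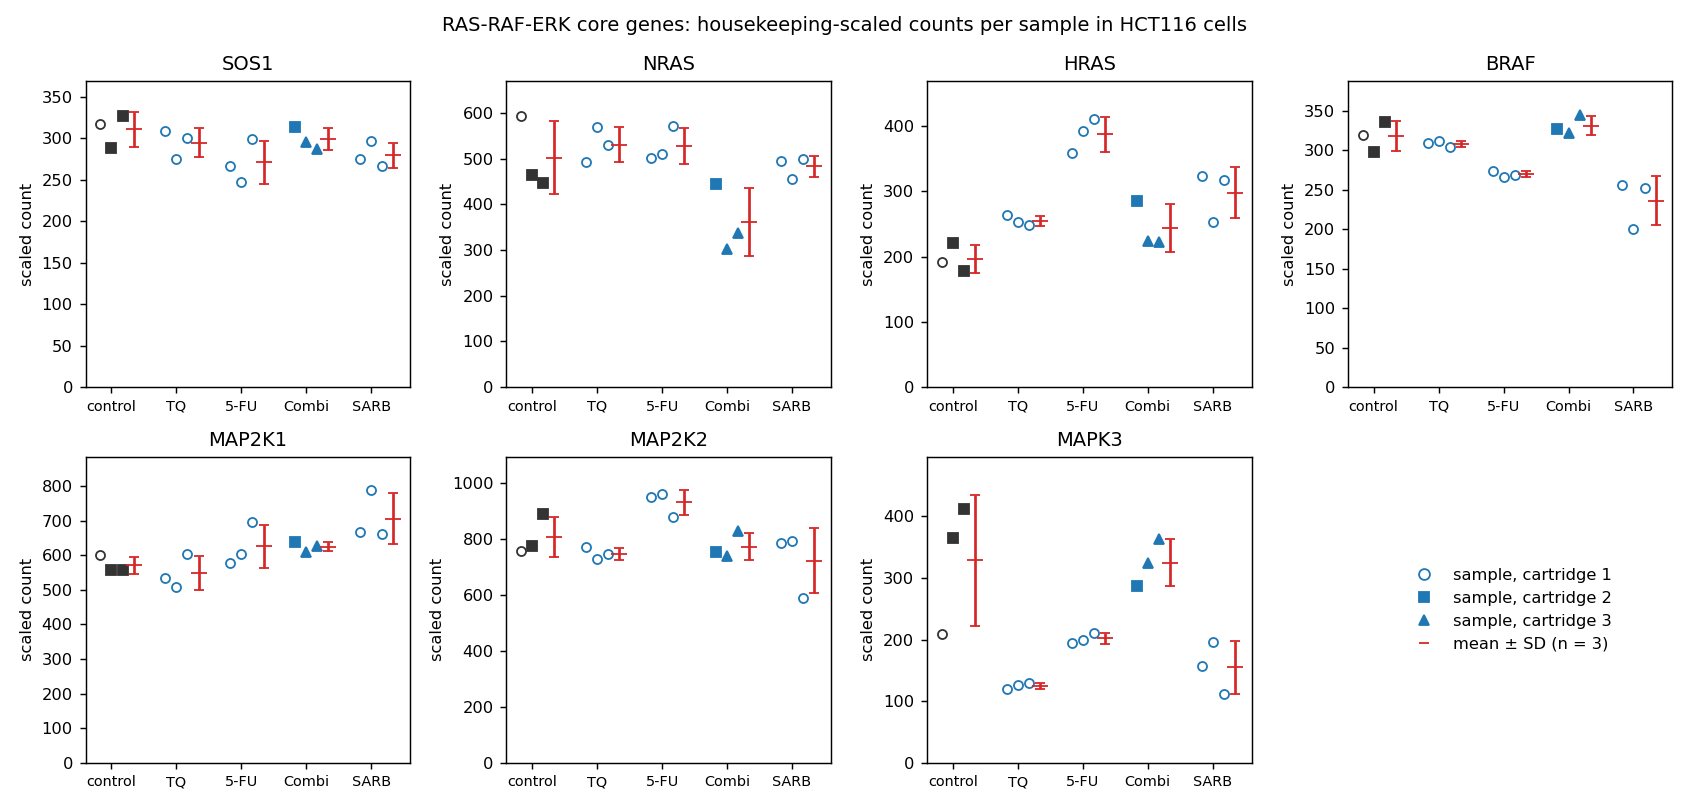
Scaled counts (y axis, raw counts scaled to the housekeeping genes) of the 7 genes in each of the 15 samples by group (x axis), with control in black, treated samples in blue, the marker shape giving the cartridge and red bars the mean ± SD of 3 replicates. HRAS lay above control in every treated sample, MAPK3 lay at 112 to 211 in TQ, 5-FU and SARB, and the control sample of the first cartridge had the lowest MAPK3 count of the 3 controls at 209.

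SOS1, the exchange factor at the top of the cascade, stayed within a narrow range in all groups. Its scaled counts were 317, 288 and 327 in control, 309, 275 and 300.1 in TQ, 266, 247 and 299 in 5-FU, 314, 296 and 287 in Combi, and 275, 296 and 267 in SARB. Every treated group overlapped with control. The log2 fold changes against control were -0.08 for TQ, -0.20 for 5-FU, -0.06 for Combi and -0.16 for SARB, with adjusted p values from 0.237 to 0.790, and none was called. From the lowest level to the highest the order was 5-FU, SARB, TQ, Combi, control, and no neighbors in this order differed beyond their spread.

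NRAS, which encodes one of the RAS GTPases, had its lowest level in Combi. Scaled counts were 593, 465 and 447 in control and 445, 303 and 336 in Combi, so all Combi samples lay below all control samples, the closest pair being 445 and 447. They were 492, 568 and 531 in TQ, 500.3, 511 and 572 in 5-FU and 494, 455 and 498 in SARB, each overlapping with control. The log2 fold change in Combi was -0.48 (SE 0.14, adjusted p = 0.0128), which is a fold of 1.40 and short of a call. Within the second cartridge the Combi sample differed from its 2 controls by -0.03 on the log2 scale. The 2 controls there were 0.38 below the control of the first cartridge, and the 2 Combi samples of the third cartridge were 0.48 below the one of the second. A fit with cartridge as a block, which rests on that 1 Combi sample and its 2 controls, gave -0.03 for NRAS in Combi. The TMM normalization described below for HRAS gave -0.41 (adjusted p = 0.104). The part of the cartridge in the Combi value was not tested further. In TQ, 5-FU and SARB the log2 fold changes were 0.09, 0.07 and -0.05, with adjusted p values of 0.635, 0.730 and 0.766. In the order Combi, SARB, control, 5-FU, TQ, the step from Combi to SARB passed the adjusted p and no other step did.

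HRAS, the other RAS gene, rose in 5-FU and in SARB. Its scaled counts were 192, 220.4 and 178 in control, 263, 253 and 249 in TQ, 358, 393 and 411 in 5-FU, 286, 224 and 222 in Combi, and 323, 253 and 318 in SARB. No treated sample reached down to the controls, with the smallest gap between Combi replicate 3 at 222 and control replicate 2 at 220.4. HRAS rose in 5-FU by 0.97 on the log2 scale (SE 0.14, adjusted p = 1.52e-05), a fold of 1.96, and in SARB by 0.60 (SE 0.14, adjusted p = 0.00196), a fold of 1.52. The SARB value lies just past the fold threshold, and it fell short of a call when control replicate 3 (0.54), SARB replicate 1 (0.55) or SARB replicate 3 (0.55) was left out, as it did with the 20 highest housekeeping genes (0.55), after subtraction of the negative probes (0.55) and with limma at pseudocounts of 1 (0.55) and 16 (0.52). In TQ the difference was 0.37 (adjusted p = 0.0523) and in Combi 0.30 (adjusted p = 0.131), and neither was called. Combi replicate 1 lay 0.53 above the 2 controls of its cartridge, and the 2 Combi samples of the third cartridge lay 0.36 below it. The cartridge block gave 0.52 for HRAS in Combi, without a call. The part of the cartridge in the Combi value was not tested. With cartridge as a block, which sets TQ, 5-FU and SARB against control replicate 1 alone, HRAS was still called in 5-FU (1.01, adjusted p = 0.000705) and in SARB (0.64, adjusted p = 0.0197). TMM normalization, which sets the bulk of the panel rather than the housekeeping genes to no change, gave 1.16 in 5-FU and 0.97 in SARB, both called, and also a call in TQ at 0.83 (adjusted p = 0.00175). From low to high the order was control, Combi, TQ, SARB, 5-FU, and no single step between neighbors passed the adjusted p.

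BRAF, the RAF kinase among the 7, was lowest in SARB. Scaled counts were 319.7, 298 and 336 in control, 309, 312 and 305 in TQ, 274, 266 and 269 in 5-FU, 327, 322 and 345 in Combi, and 256, 200.1 and 252 in SARB. The samples of 5-FU and SARB all lay below control, and those of TQ and Combi overlapped with it. The log2 fold change was -0.42 in SARB (SE 0.12, adjusted p = 0.00897), a fold of 1.34 that was not called, and -0.24 in 5-FU (adjusted p = 0.148). After TMM normalization the SARB value was -0.05 (adjusted p = 0.827). TQ and Combi gave -0.04 and 0.06, with adjusted p values of 0.80 and 0.766. In the order SARB, 5-FU, TQ, control, Combi, no step between neighbors passed the adjusted p.

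MAP2K1 and MAP2K2, which encode the kinases MEK1 and MEK2, gave values of opposite sign in SARB, neither of them called, and both were positive after TMM normalization (0.64 and 0.17). MAP2K1 had 599.5, 558 and 557 scaled counts in control and 667, 789.7 and 660.5 in SARB, with no overlap, and MAP2K2 had 756, 777 and 889 in control and 786, 795 and 588 in SARB, with overlap. The log2 fold change in SARB was 0.30 for MAP2K1 (SE 0.12, adjusted p = 0.0429), a fold of 1.23 that was not called, and -0.16 for MAP2K2 (adjusted p = 0.282). The TMM value of MAP2K1 (adjusted p = 0.000758) was a call, while the cartridge block gave 0.23 (adjusted p = 0.350). MAP2K1 had 533, 507 and 603 scaled counts in TQ, 577, 603 and 697 in 5-FU and 637, 611 and 628 in Combi. Of these only Combi did not overlap with control, and the log2 fold changes were -0.06, 0.13 and 0.13 with adjusted p values of 0.674, 0.420 and 0.473. MAP2K2 had 770.3, 727 and 747 in TQ, 952, 961 and 879.6 in 5-FU and 752, 740.0 and 828 in Combi. All of these overlapped with control, and the log2 fold changes were -0.11, 0.21 and -0.06 with adjusted p values of 0.475, 0.217 and 0.771. The order was TQ, control, Combi, 5-FU, SARB for MAP2K1 and SARB, TQ, Combi, control, 5-FU for MAP2K2, with no step between neighbors past the adjusted p.

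MAPK3, which encodes ERK1 at the end of the cascade, fell in TQ, SARB and 5-FU and was not called in Combi. Scaled counts were 209, 365 and 412 in control, 119.7, 126 and 129 in TQ, 194, 199.8 and 211 in 5-FU, 287, 325 and 363 in Combi, and 157, 197 and 112 in SARB. All TQ and SARB samples lay below all control samples, 5-FU overlapped with the lowest control, and Combi overlapped with control. MAPK3 fell in TQ to 38.0% of control (log2 fold change -1.39, SE 0.22, adjusted p = 7.49e-05), in SARB to 46.1% (-1.12, SE 0.21, adjusted p = 0.000195) and in 5-FU to 61.2% (-0.71, SE 0.21, adjusted p = 0.0118). In Combi the log2 fold change was -0.02 (95% interval -0.42 to 0.39, adjusted p = 0.979). In the order TQ, SARB, 5-FU, Combi, control, the step from 5-FU to Combi (0.69, adjusted p = 0.0170) was called and no other step passed the adjusted p. Samples of 5-FU and Combi shared no cartridge, and with cartridge as a block that step was -0.39 (adjusted p = 1.00), with the direction turned and no call.

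The MAPK3 counts of the controls differed by cartridge. The 2 controls of the second cartridge were 0.89 higher on the log2 scale than the control of the first, which placed MAPK3 at rank 34 from the highest of 514 genes in that difference, where the median gene differed by 0.11. Against control replicate 1, run on the same cartridge, all 3 TQ samples were lower, with a mean difference of -0.74, and all 3 SARB samples were lower, with -0.47. The 5-FU samples differed from that control by -0.05, with 1 of 3 above it. Combi replicate 1 was 0.44 below the mean of the 2 controls of its cartridge. With cartridge as a block the log2 fold changes were -0.74 in TQ (adjusted p = 0.0733), -0.05 in 5-FU (adjusted p = 0.947), -0.44 in Combi (adjusted p = 0.259) and -0.47 in SARB (adjusted p = 0.20), and none was called. That fit rests on 1 control for TQ, 5-FU and SARB and on 1 Combi sample. With TMM normalization MAPK3 was called lower in TQ (-0.90) and SARB (-0.77), and in 5-FU it gave -0.50 (adjusted p = 0.0489) without a call. Leaving out control replicate 2 (-0.62, adjusted p = 0.0602) or control replicate 3 (-0.52, adjusted p = 0.101) also ended the 5-FU call, while the TQ and SARB calls held with any 1 sample left out, at -1.63 to -1.20 and -1.36 to -0.91.

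**Figure D2:**
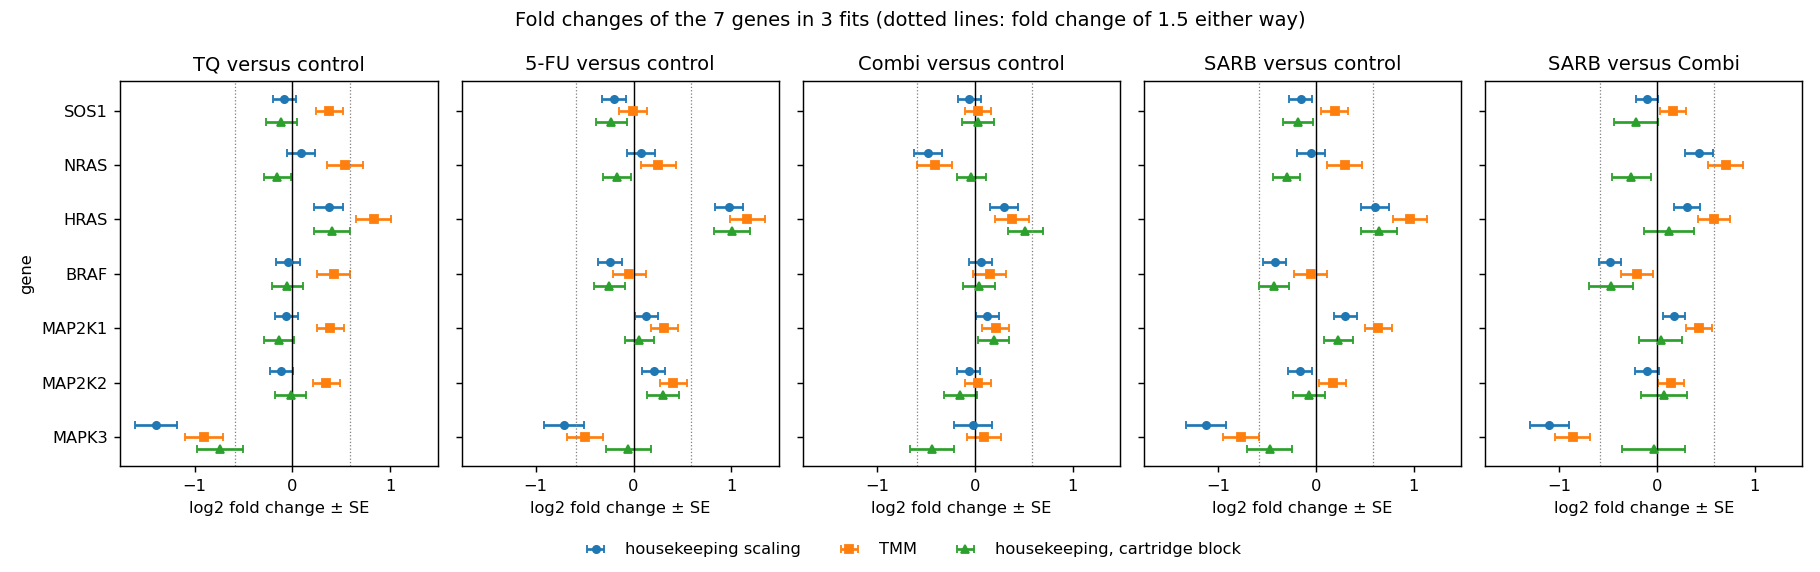
Log2 fold changes (x axis, ± SE) of the 7 genes (y axis) in 5 comparisons, from the fit with housekeeping scaling (blue circles), with TMM normalization (orange squares) and with cartridge as a block (green triangles), and dotted lines at a fold of 1.5. HRAS stayed right of the 1.5-fold line in 5-FU in all 3 fits, and MAPK3 moved toward 0 with the cartridge block in TQ, 5-FU and SARB.

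Counted over the 7 genes, TQ gave 1 call, lower, where 25.1% of the 730 genes were called (3.42% higher and 21.6% lower). 5-FU gave 1 higher and 1 lower, where 20.3% of all genes were called (10.1% higher and 10.1% lower). SARB also gave 1 higher and 1 lower, where 28.6% were called (8.63% higher and 20% lower). Combi gave no call by edgeR, where 20.1% of all genes were called (13.6% higher and 6.58% lower), with 2 of the 7 genes at an unadjusted p under 0.05 (NRAS and HRAS) and no call by DESeq2 or limma either. With TMM normalization the split over all genes turned to 79 higher and 44 lower for TQ and to 120 higher and 68 lower for SARB, from 25 and 158 and from 63 and 146, and it was 104 and 41 for 5-FU and 119 and 42 for Combi. Of the 7 genes TMM called HRAS higher and MAPK3 lower in TQ, HRAS higher in 5-FU, and in SARB HRAS and MAP2K1 higher and MAPK3 lower, with no call in Combi. The groups did not overlap for 2 of the 7 genes in TQ (45.6% of all genes), 2 in 5-FU (44.1%), 3 in Combi (36%) and 4 in SARB (42.1%). These counts are a description, and nothing particular to the 7 genes is read from them. The median log2 fold change of the 7 genes was -0.06 for TQ, 0.07 for 5-FU, -0.02 for Combi and -0.16 for SARB, beside -0.47, -0.27, -0.10 and -0.41 over all genes. After TMM normalization the medians of all genes lay between -0.07 and -0.02, and those of the 7 genes were 0.39, 0.25, 0.10 and 0.20. The 4 comparisons share the same controls.

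Combi and SARB were given at a matched dose of 35 µM, SARB carrying TQ and 5-FU in 1 molecule and Combi holding them as separate compounds. MAPK3 was lower in SARB than in Combi by a log2 difference of -1.10 (SE 0.20, 95% interval -1.52 to -0.69, adjusted p = 0.000593), with the 3 SARB samples at 112 to 197 and the 3 Combi samples at 287 to 363. This was the only member called, where 12.2% of the 730 genes were called (0.959% higher and 11.2% lower in SARB). BRAF gave -0.48 (interval -0.72 to -0.24, adjusted p = 0.00619) and NRAS 0.43 (interval 0.14 to 0.72, adjusted p = 0.0366), both without overlap and both short of a fold of 1.5. After TMM normalization the BRAF difference was -0.21 (adjusted p = 0.421). For HRAS the difference was 0.30 (interval 0.03 to 0.58, adjusted p = 0.114), and for MAP2K1 it was 0.17 (interval -0.06 to 0.41, adjusted p = 0.294). SOS1 and MAP2K2 both gave -0.10, with intervals of -0.34 to 0.14 and of -0.35 to 0.14. The groups did not overlap for 4 of the 7 genes, against 33.8% of all genes. The medians were -0.10 for the 7 genes and -0.32 for all genes. SARB and Combi never ran on the same cartridge, and treatment and cartridge cannot be told apart in these samples. The fit with cartridge as a block links them only through the controls. That fit gave -0.03 for MAPK3, -0.26 for NRAS and -0.47 for BRAF (adjusted p = 0.997 each). TMM normalization kept MAPK3 lower (-0.86) and called NRAS higher (0.70).

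TQ, 5-FU and SARB ran on 1 cartridge and differed in dose, so their levels are set side by side. HRAS averaged 255 ± 7.52 in 40 µM TQ, 387 ± 27.0 in 15 µM 5-FU and 298 ± 39.2 in 35 µM SARB (SD, n = 3), and MAPK3 averaged 125 ± 4.70, 202 ± 8.65 and 155 ± 42.5. Of the 7 genes HRAS and MAPK3 were called higher in 5-FU than in TQ, with log2 differences of 0.60 (adjusted p = 0.00225) and 0.69 (adjusted p = 0.0240), where 17.5% of all genes were called. After TMM normalization these were 0.33 and 0.41 and not called. Between SARB and TQ no member was called, where 19.5% of all genes were, although BRAF (-0.38, adjusted p = 0.0206) and MAP2K1 (0.37, adjusted p = 0.0210) passed the adjusted p. After TMM normalization BRAF gave -0.48 (adjusted p = 0.0373) and MAP2K1 gave 0.25 (adjusted p = 0.204). Between SARB and 5-FU no member was called by edgeR, where 1.23% of all genes were, with HRAS and MAP2K2 at an unadjusted p under 0.05.

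Ratios of 2 raw counts within 1 sample do not depend on how samples are scaled, and 4 such ratios were formed after the values had been seen. Different probes are not comparable in level, so only differences between groups are read. The log2 ratio of HRAS to NRAS was -1.63, -1.08 and -1.33 in control, -0.48, -0.38 and -0.48 in 5-FU, -0.64, -0.43 and -0.60 in Combi, and -0.61, -0.85 and -0.65 in SARB. The ratio was thus higher in all samples of these 3 treatments than in all controls, by 0.90 in 5-FU, 0.79 in Combi and 0.64 in SARB. In TQ it was -0.90, -1.17 and -1.09, overlapping with control. The log2 ratio of MAP2K1 to MAP2K2 was -0.34, -0.48 and -0.67 in control and -0.24, -0.01 and 0.17 in SARB, a difference of 0.47 without overlap. TQ, 5-FU and Combi overlapped with control in this ratio. The log2 ratio of MAPK3 to the geometric mean of the other 6 genes was -0.995, -0.11 and 0.03 in control, -1.79, -1.69 and -1.70 in TQ, and -1.44, -1.04 and -1.84 in SARB. It was lower than in control by differences of -1.37 in TQ, -0.81 in 5-FU and -1.08 in SARB, none of which overlapped with control, although control replicate 1, at -0.995, lay close to SARB replicate 2, at -1.04. In Combi the difference was 0.05 (exact permutation p = 1). In the MAPK3 ratio the 5-FU samples, at -1.18, -1.15 and -1.17, also lay close to control replicate 1. That was the only control on the cartridge of TQ, 5-FU and SARB. Ratios do not remove a difference between cartridges, and its part in the MAPK3 ratio was not tested. The log2 ratio of BRAF to SOS1 differed from control by -0.29 in SARB and 0.11 in Combi, without overlap in either. A two-sided exact permutation test of 3 against 3 samples cannot go below p = 0.1, which all these non-overlapping differences reached, with a Benjamini-Hochberg value of 0.167 over 20 tests.

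**Figure D3:**
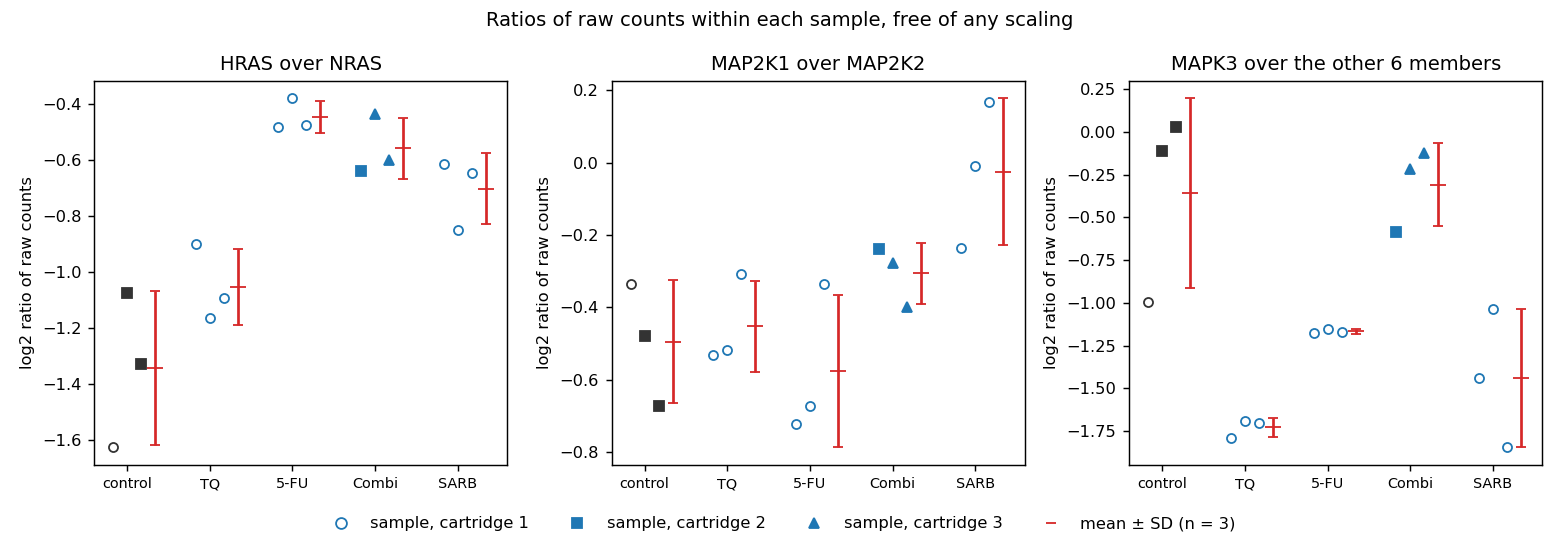
Log2 ratios of raw counts within each sample (y axis) for HRAS over NRAS, MAP2K1 over MAP2K2 and MAPK3 over the geometric mean of the other 6 genes, by group (x axis), with control in black, treated samples in blue, marker shape giving the cartridge and red bars the mean ± SD of 3 samples. The ratio of HRAS to NRAS averaged -1.34 in control and -0.45 in 5-FU, and the ratio of MAPK3 to the others averaged -0.36 in control and -1.73 in TQ.

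The wider pathway was described with a list of 68 genes written by role, of which 34 besides the 7 were on the panel. In TQ 4 of the 34 were called higher and 8 lower, in 5-FU 5 and 2, in Combi 7 and 4, and in SARB 5 and 9, beside the shares of all genes given above. With TMM normalization the list, too, had more genes higher than lower in TQ (6 and 2) and SARB (6 and 3), and gave 6 and 1 in 5-FU and 7 and 3 in Combi. The list's median log2 fold changes were -0.34, -0.25, -0.08 and -0.38. FOS, an immediate early gene encoding an AP-1 subunit, rose in TQ by 2.70 (SE 0.19, adjusted p = 2.63e-09) and in Combi by 2.29 (SE 0.19, adjusted p = 3.09e-09). In SARB FOS fell by 0.61 (adjusted p = 0.0237) with overlapping groups, and the TMM and cartridge fits did not call it. DUSP5, a nuclear phosphatase that inactivates ERK, rose in all treatments, by 1.33 (TQ), 1.99 (5-FU), 1.62 (Combi) and 2.10 (SARB), with adjusted p values of at most 1.38e-08, and it was also called with TMM and with the cartridge block. FOSL1, another AP-1 subunit, rose in Combi by 1.29, and in TQ, 5-FU and SARB by 0.64, 1.17 and 1.08. ETV1, an ETS transcription factor, fell by 1.81 (TQ), 1.28 (5-FU), 0.87 (Combi) and 1.21 (SARB). RASAL1, a RAS GTPase-activating protein, rose in 5-FU by 1.28 (adjusted p = 0.00107). It was also called higher in Combi (0.81, adjusted p = 0.0275, with overlap) and in SARB (0.95, adjusted p = 0.00944), but not in TQ (0.18). With the cartridge block the RASAL1 call held in Combi (1.06) and was lost in 5-FU (0.65) and SARB (0.32). SHC3, an adaptor, was called lower in TQ (-2.37) and SARB (-2.21), but its raw counts averaged 7.40 per sample, near the negative probes at 3.12 to 16.4.

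With housekeeping scaling, the regulators GRB2, SOS2 and NF1 were not called in any comparison with control, while TMM normalization called GRB2 higher in TQ (0.64) and SOS2 higher in SARB (0.61). GRB2, the adaptor that carries SOS proteins to receptors, gave 0.18 in TQ, 0.07 in 5-FU, -0.46 in Combi (adjusted p = 0.00866) and -0.27 in SARB. SOS2, the paralog of SOS1, gave 0.06, 0.10, 0.41 and 0.24, with adjusted p values from 0.123 to 0.821. NF1, a GTPase-activating protein that switches RAS off, gave -0.36 in TQ (adjusted p = 0.0386), -0.23 in 5-FU, 0.42 in Combi (adjusted p = 0.0128) and 0.09 in SARB. Between SARB and Combi 0 of the 34 genes were called higher and 5 lower in SARB, beside 0.959% and 11.2% of all genes. FOS differed most, by -2.90 (SE 0.19, adjusted p = 5.16e-10). With the cartridge block FOS was the only 1 of the 34 called (-3.07).

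**Figure D4:**
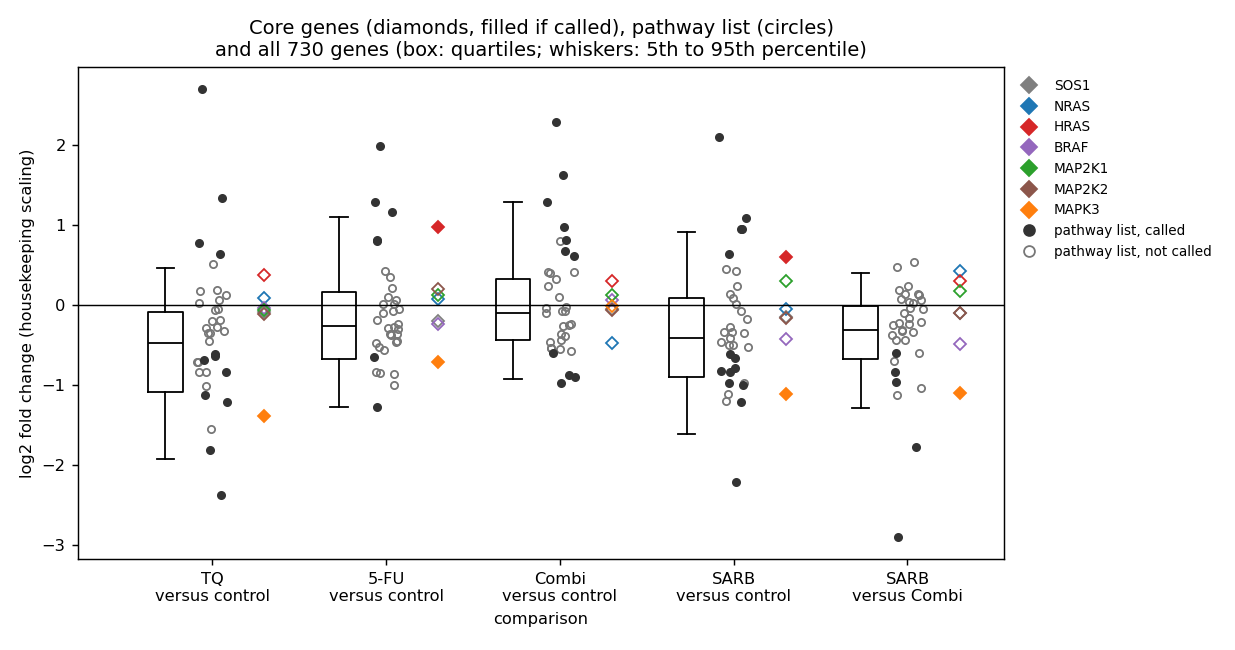
Log2 fold changes after housekeeping scaling (y axis) in 5 comparisons (x axis) for all 730 genes (boxes with the quartiles, whiskers from the 5th to the 95th percentile), the 34 other pathway genes (circles) and the 7 core genes (colored diamonds), filled where called. Most core genes lay close to 0, with MAPK3 at -1.39 in TQ and HRAS at 0.97 in 5-FU, while FOS at 2.70 in TQ and DUSP5 at 1.99 in 5-FU were the highest of the pathway list.

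The genes whose levels most resembled each member were ranked by Pearson r of log2 scaled counts over the 15 samples, among 323 genes with a mean scaled count of at least 100. These r values are descriptions, since the 15 samples share 5 treatments, 3 cartridges and the same scaling. NRAS was most like DNMT1 (r = 0.933), which encodes the maintenance DNA methyltransferase, and PPP2R1A (0.898). HRAS was most like NF2 (0.864) and XRCC4 (0.838), and MAP2K2 was most like PRKACA (0.876) and MEN1 (0.844). Among the genes reported, BRAF was nearest to BRCA2 (0.821) and IDH1 (0.790), MAP2K1 to FGFR2 (0.780), and SOS1 to MLF1 (0.761) and E2F5 (0.754). MAPK3 was most like RAC1 (0.919) and BRIP1 (0.914). After TMM normalization the r values were 0.966 for NRAS with DNMT1 and 0.918 for HRAS with NF2, but 0.627 and 0.663 for MAPK3 with RAC1 and BRIP1, 0.465 for BRAF with IDH1 and 0.399 for SOS1 with E2F5.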

How the data were processed

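HCT116 RNA (50 ng per sample) was measured on the nCounter PanCancer Pathways panel in 15 samples, 5 groups of 3. The authors deposited raw counts, values normalized in nSolver to the geometric mean of the housekeeping genes, and their own comparisons (fold changes with p-values), which were not used. In every sample 100% of the deposited normalized values (a signal) equaled, within 1%, a product of 1 factor and the raw count after subtraction of the negative probes' geometric mean, with values under 1 set to 1. A genome build is not given in the sources used here.

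Raw counts were scaled to the 40 housekeeping genes. One edgeR 4.0.16 quasi-likelihood fit (R 4.3.3) of the 5 groups over 730 genes gave each comparison, with Benjamini-Hochberg adjustment over the 730 genes, and SE was the log2 fold change over the square root of F. Alternatives were TMM, DESeq2 1.42.0, the 20 highest housekeeping genes, a mean count of at least 20, a floor of 20 counts, subtraction of negative probes, cartridge or replicate number as a block, limma 3.58.1 on the deposited values with pseudocounts of 1 and 16, and each sample left out in turn. The fitting code was tested on simulated data. Counting error and 3 samples per group limit the precision, and each p-value sets a difference between groups against the spread between these samples.

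The 7 genes and the pathway and marker lists were chosen with earlier results of these data known. Named were all 7 genes in every group, in each comparison with control the 3 called pathway genes with the largest changes, GRB2, SOS2 and NF1, and the 2 genes most like each member. FOS, DUSP5, FOSL1, ETV1 and RASAL1 are followed into comparisons where the rule did not name them, after their values were seen, as is FOS between SARB and Combi. The values of 2 genes that the rule also covers are not reported here.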

Additional observations from a re-analysis of the deposited data

How the results depend on the processing

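Of the 10 alternative settings, all kept HRAS higher in 5-FU (0.91 to 1.17, called in 10 of 10), and MAPK3 was called lower in 9 of 10 in TQ, SARB and SARB versus Combi, the exception being the cartridge block. The call of MAPK3 in 5-FU held in 6 of 10 and that of HRAS in SARB in 6 of 10. Small changes turned sign with TMM and DESeq2, which center on all genes. In TQ these gave 0.38 and 0.41 for SOS1, 0.42 and 0.46 for BRAF, 0.39 and 0.42 for MAP2K1 and 0.35 and 0.39 for MAP2K2. In SARB they gave 0.20 and 0.21 for SOS1, 0.29 and 0.30 for NRAS and 0.17 and 0.18 for MAP2K2, and in SARB versus Combi 0.16 and 0.24 for SOS1 and 0.14 and 0.21 for MAP2K2. In 5-FU DESeq2 gave 0.0036 for SOS1. In Combi TMM gave 0.033 for SOS1, 0.034 for MAP2K2 and 0.097 for MAPK3, where DESeq2 gave 0.035 and the 20 highest housekeeping genes 0.031, and BRAF was -0.014 after subtraction of negative probes and -0.012 with limma at both pseudocounts. The cartridge block turned NRAS to -0.15 in TQ, -0.17 in 5-FU and -0.26 in SARB versus Combi, SOS1 to 0.032 in Combi and MAP2K2 to 0.074 in SARB versus Combi. The cause of these turns was not tested.

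Members called in TQ numbered 2 with TMM and with DESeq2 and 0 with the cartridge block. In 5-FU they numbered 1 with TMM, DESeq2, the cartridge block and limma at pseudocount 1, and in SARB 1 with 20 housekeeping genes, subtraction of negative probes, the cartridge block and limma at both pseudocounts. In SARB versus Combi they numbered 2 with TMM, 3 with DESeq2, 2 with 20 housekeeping genes and 0 with the cartridge block. The pathway list gave 7 calls in TQ with the cartridge block, in SARB 9 with TMM and 7 with DESeq2 and with the cartridge block, and in SARB versus Combi 3 with DESeq2, the floor of 20 and limma at both pseudocounts, 2 with subtraction and with the replicate block and 1 with the cartridge block. Over all genes TQ gave 92 calls with the floor, 39 with the cartridge block and 117 with limma at pseudocount 16, against 183, and the cartridge block gave 98 in 5-FU, 96 in Combi, 106 in SARB and 1 in SARB versus Combi, against 148, 147, 209 and 89.

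With 1 sample left out, calls over all genes ranged from 86 to 234 (TQ), 128 to 180 (5-FU), 128 to 169 (Combi), 154 to 308 (SARB) and 49 to 156 (SARB versus Combi). Members called ranged from 1 to 1, 1 to 2, 0 to 1, 1 to 2 and 1 to 2, and pathway genes from 8 to 14, 7 to 8, 8 to 14, 11 to 16 and 2 to 7. Values turned sign in the ranges of BRAF in TQ (-0.086 to 0.00020), NRAS in 5-FU (-0.0025 to 0.21) and SARB (-0.13 to 0.085), MAP2K2 in Combi (-0.11 to 0.013) and SARB versus Combi (-0.18 to 0.030), and MAPK3 in Combi (-0.25 to 0.18). Without Combi replicate 1, NRAS was called lower in Combi (-0.65) and higher in SARB versus Combi (0.60).

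Same-numbered replicates did not deviate together (correlations of -0.68 to 0.39, 9 of 30 over 0.1, and 3 of 15 samples closest to their own number), so the numbers were not taken as pairs. With replicate number as a block, 162, 142, 143, 188 and 70 of all genes were called in TQ, 5-FU, Combi, SARB and SARB versus Combi, and 1, 2, 0, 2 and 1 of the members.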
